A study of Rattus norvegicus with 10 samples.

Results

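Heat shock proteins and their cochaperones were read out in muscle beneath the skin of arthritic rats, in 10 libraries of RNA sequencing. The members were the rows of the expression table whose symbol begins with Hspa, Hspb, Dnaja, Dnajb, Dnajc or Bag followed by a number, or with Hsp90, Hsph1, Hspd1 or Hspe1. This gave 80 of the 17221 transcripts, from 74 symbols. The rule uses names and no measured value, though the family was taken up with earlier results of these data known. Of the 80 transcripts, 69 had at least 1 CPM (counts per 1000000 reads, scaled between libraries) in both libraries of at least 1 group and were tested.

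All 5 groups were female Wistar rats in which arthritis had been induced with bovine type II collagen in adjuvant, as a model of rheumatoid arthritis (RA). RA_0 was taken before any therapy. AP_1h and AP_34d were taken 1 h and 34 days into acupuncture, in which a thin needle was inserted on both sides of the body and twirled. PLA_1h and PLA_34d were taken at the same times from placebo animals, which received weekly sterile saline into the peritoneum. Per the paper, needling was every other day and the tissue was cut from around the needled points. The placebo injection thus matched neither the sampled site nor the schedule. Each group held 2 animals, one library each, so every p-value below reflects the spread between 2 animals a group. All animals had been shaved, the tissue was stored frozen and extracted as a single batch, and no healthy animals and no untreated animals of the later times were among these libraries.

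Chaperones bind proteins that are unfolded or only partly folded and keep them from aggregating. HSP70 proteins (Hspa) work in a cycle of ATP binding and hydrolysis that J proteins (Dnaja, Dnajb, Dnajc) start and nucleotide exchange factors (Hsph1, Hspa4, Bag) end, HSP90 proteins finish the folding of kinases and receptors, and small heat shock proteins (Hspb) hold unfolded clients without ATP. In muscle the small heat shock proteins sit on the sarcomere and the cytoskeleton, and with Bag3 they serve the turnover of filamin and other strained proteins. The cytosolic members are classic targets of the heat shock factor Hsf1, which binds inverted repeats of the letters GAA, while the members of the endoplasmic reticulum are targets of the unfolded protein response, which acts through a separate element.

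Both elements were looked for in the promoters, because each belongs to a pathway that is known to drive members. The windows ran from 250 bases before to 50 bases after the gene start in RefSeq's assembly GRCr8, which held a window for 58 of the 74 symbols. The heat shock element was searched as GAANNTTCNNGAA and its reverse TTCNNGAANNTTC, a strict form of 3 units. It was in 267 of the 33469 windows of all genes (0.798%) and in 5 of the 58 members (8.62%), namely Dnaja1, Hspa8, Hspd1, Hspe1 and Hsph1. Hspa1a, Hspa4l, Hsp90ab1, Hspb1, Dnajb1 and Bag3 are known Hsf1 targets too, and their windows did not hold this strict form. Its absence thus does not place a member outside that pathway. Sequences are given from 5′ to 3′ on the strand of the gene, with the matched letters in capitals, to show where the repeats lie in the 4 regions.
Hsph1 (chr12:10427312-10427364, plus strand): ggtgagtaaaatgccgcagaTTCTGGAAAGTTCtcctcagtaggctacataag
Hspa8 (chr8:50080281-50080491, plus strand): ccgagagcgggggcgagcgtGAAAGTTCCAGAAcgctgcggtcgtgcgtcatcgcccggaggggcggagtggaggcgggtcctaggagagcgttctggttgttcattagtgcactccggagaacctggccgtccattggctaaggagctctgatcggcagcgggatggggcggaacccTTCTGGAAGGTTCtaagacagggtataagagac
Hspe1 (chr9:64084242-64084299, plus strand): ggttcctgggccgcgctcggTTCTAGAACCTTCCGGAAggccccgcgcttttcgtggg
Dnaja1 (chr5:60638393-60638425, plus strand): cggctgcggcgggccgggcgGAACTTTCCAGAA
The match in Hsph1 began 36 bases before the gene start, and those in Hspa8 began 213 and 55 bases before it. Hspe1 and Hspd1 are divergent neighbours that share a single region, so that the pair of overlapping matches printed for Hspe1 is also the match of Hspd1, read on the other strand. The match in Dnaja1 lay in the transcribed part, 9 bases after the gene start.

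The endoplasmic reticulum stress element was searched as its full form, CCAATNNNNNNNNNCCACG and the reverse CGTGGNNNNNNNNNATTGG. It was in 22 of the 33469 windows (0.0657%) and in 3 of the 58 members (5.17%), Dnajc3, Hsp90b1 and Hspa5, which all encode proteins of the reticulum.
Hspa5 (chr3:38452953-38453011, plus strand): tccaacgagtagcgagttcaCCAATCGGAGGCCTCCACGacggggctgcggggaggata
Dnajc3 (chr15:102432514-102432572, plus strand): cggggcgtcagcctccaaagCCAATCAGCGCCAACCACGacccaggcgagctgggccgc
Hsp90b1 (chr7:23012327-23012489, minus strand): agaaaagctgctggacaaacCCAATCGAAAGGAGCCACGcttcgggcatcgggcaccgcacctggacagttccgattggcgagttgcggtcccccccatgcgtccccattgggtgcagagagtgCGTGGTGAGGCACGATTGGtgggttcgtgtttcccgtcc
The matches began 43 bases before the gene start in Hspa5, 133 in Dnajc3, and 176 and 72 in Hsp90b1. No member's window held both elements. A match describes the letters only and is not evidence of binding, and the 16 symbols without a window, among them Hsp90aa1 and Hspa1b, were not searched.

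Depth ran from 5371687 to 8899521 counted reads a library. On this scale 1 CPM was 4.19 to 10.1 reads and a count of 0 allowed up to 0.297 to 0.716 CPM (3 reads, counting error only). Fast fibre markers such as Ckm and Myh4 were abundant in every library, with a sum over 11 transcripts of 100200 to 315940 CPM. Slow fibre markers varied far more, from 975 CPM in AP_1h replicate 1 to 19965 in RA_0 replicate 1. PLA_34d replicate 1 stood apart by its leukocyte markers, whose sum was 1199.6 CPM against 125 to 565 in the other libraries. Its adipocyte markers Adipoq, Plin1 and Lep were also the highest, at 73, 16.4 and 10.3 CPM against at most 21.1, 8.61 and 2.08 elsewhere, although the sum of all adipocyte markers, in which Fabp4 weighs most, was not (295 CPM in a range of 152 to 384). The 5 tested adipocyte transcripts had a median log2 change of -1.25 in AP_34d against PLA_34d, -1.39 over both times and 1.69 in PLA_34d against RA_0, and their part in the members' differences was not tested. PLA_34d replicate 1 also had the lowest fast fibre sum, at 100200 CPM, and the highest factor for scaling between libraries, at 1.31. It was the lowest library for 22 of the 69 tested members, and the same count was not taken over all transcripts. All 5 transcripts of the leukocyte marker Ptprc were at 0 in every library. In whole tissue, fewer cells of a type and less RNA per cell cannot be told apart.

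Counting left some members unreadable. Hspa1a, the inducible HSP70, was listed at 0 in every library, and on the rat build rn4 its span (chromosome 20, 3955274 to 3957748) lies wholly within that of its near-identical copy Hspa1b (3953956 to 3959552), which had 1.05 to 3.91 CPM. Reads that fit more than one transcript were left uncounted by the mode used, so no statement on the level of inducible HSP70 can be drawn from either row. Likewise both transcripts of Bag1, a nucleotide exchange factor of HSP70, have the same span and were at 0. The testis member Dnajb8 was also at 0 throughout, and Dnajb3, Dnajb7, Dnajb13, Dnajc5b, Dnajc5g, Dnajc6 and Hspb9 had between 3 and 59 reads over all 10 libraries and were not tested.

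For Hspa8, Dnajb12 and Dnajb4 the table lists 1 transcript at 2 places. The 2 rows of Hspa8, the constitutive HSP70 of the cytosol, kept a ratio of 1.79 to 2.00 in all libraries, and those of Dnajb12 one of 0.931 to 1.28, so each pair is in effect 1 measurement. Counts of members below are counts of rows, in which both rows of such a pair stand, and counts with the rows summed per symbol are given beside those it changes. The 2 rows of Dnajb4 had a ratio of 3.14 to 5.33. The overlapping transcripts of Bag6 had ratios from 0.755 to 3.87. Of the members, 11 overlap a transcript of another symbol, and whether counting used the strand is not stated, so their values may hold reads of the neighbour.

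No member passed the test in any comparison. limma, fitted to log2(CPM + 1) over all 10 libraries with Benjamini-Hochberg adjustment over 10259 transcripts, called 0 of the 69 at an adjusted p under 0.05 in AP_1h against RA_0, where 0.0292% of all transcripts were called, and 0 in the other comparisons, where 0% were. limma-voom, edgeR and DESeq2 also called 0 members in each. The smallest adjusted p of a member was 0.364, that of Dnaja4 in AP_1h against RA_0. The 95% interval of a change reached 0.58 to 1.92 on either side on the log2 scale, with a median of 0.80 (1.75-fold). This interval is not adjusted for the number of tests, so changes well above this size could also fail to pass. The 1.19 of Dnajc3 in AP_34d against PLA_34d, for instance, had a limma adjusted p of 0.846.

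**Figure D1:**
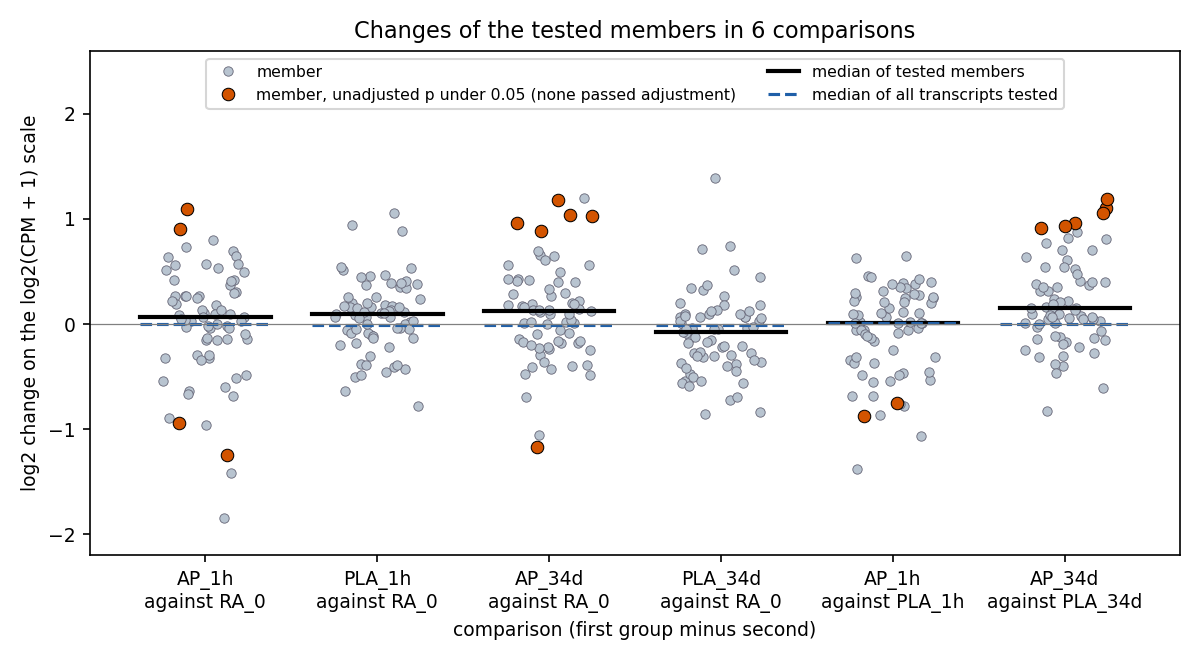
Each point is 1 of the 69 tested members, with its log2 change (first group minus second, on the log2(CPM + 1) scale) on the vertical axis and the comparison on the horizontal axis. Orange points had an unadjusted p under 0.05, and none passed adjustment. Solid lines are the medians of the members, from -0.08 in PLA_34d against RA_0 to 0.15 in AP_34d against PLA_34d, and dashed lines those of all transcripts tested, which lie near 0.

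At an unadjusted p under 0.05, 4 of the 69 members (5.8%) differed between AP_1h and RA_0, below the 8.89% of all transcripts. They were 6 (8.7%) for AP_34d against RA_0 (all transcripts 4.77%), 0 for PLA_1h against RA_0 (2.59%), 0 for PLA_34d against RA_0 (3.2%), 2 (2.9%) for AP_1h against PLA_1h (4.04%) and 6 (8.7%) for AP_34d against PLA_34d (5.47%). The last 6 are 5 genes, since both rows of Dnajb12 are among them, and with rows summed per symbol they were 5 of 64 (7.81%, all symbols 5.49%). Acupuncture against placebo over both times gave 5 (7.25%, all transcripts 5.72%), the interaction of treatment and time 3 (4.35%, all transcripts 4.05%; 2 of 64 with rows summed per symbol), and the F test of any difference between the 5 groups 2 (2.9%, all transcripts 4.98%). These counts rested on single libraries. The share of all transcripts was not taken in the refits below, so a shift particular to the members cannot be told from a general one. Without AP_34d replicate 2 the 6 members of AP_34d against RA_0 became 0, and without RA_0 replicate 2 they became 3, while without AP_34d replicate 1 the 6 of AP_34d against PLA_34d became 12. The 4 of AP_1h against RA_0 became 7 when either AP_34d library, which lends its spread to the fit, was left out. The 2 of AP_1h against PLA_1h ran from 0 without AP_1h replicate 1 to 5 without PLA_1h replicate 1, and became 4 if AP_1h replicate 2 was dropped and 1 if PLA_1h replicate 2 or either library of RA_0 or AP_34d was dropped. The 0 of PLA_34d against RA_0 became 3 without RA_0 replicate 2 and 1 without any library of AP_1h, PLA_1h, AP_34d or PLA_34d, and the 0 of PLA_1h against RA_0 became 1 without any library of AP_1h or PLA_1h. Over both times the 5 became 1 without AP_1h replicate 1 or AP_34d replicate 2, 3 without PLA_1h replicate 1 or PLA_34d replicate 1, and 9 without AP_34d replicate 1. The 3 of the interaction ran from 0 without PLA_1h replicate 2 to 6 without AP_34d replicate 1, with 1 without PLA_34d replicate 2 and 5 without PLA_1h replicate 1. The 4 comparisons with RA_0 share the same 2 control libraries and are not independent.

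The classic heat shock response gave both directions. Of the 15 tested transcripts of the members known as Hsf1 targets, 8 lay above 0 and 7 below in AP_1h against RA_0, with a median log2 change of 0.04 beside 0.00 for all transcripts. In PLA_1h against RA_0 the split was 11 to 4, with a median of 0.20 (all transcripts -0.01). At 34 days against RA_0 the median was 0.10 after acupuncture (all transcripts -0.01) and -0.05 after placebo (all transcripts -0.01). The 15 hold both rows of Hspa8 and of Dnajb4, and Hspa1b. With rows summed per symbol and without Hspa1b, a choice made after the values were seen, 12 symbols remained. They split 7 above and 5 below 0 in AP_1h (median 0.07), 9 and 3 in PLA_1h (0.29), 9 and 3 in AP_34d (0.09) and 5 and 7 in PLA_34d (-0.17). None of the transcripts or symbols passed the test.

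Hsph1, the HSP110 that recharges HSP70 and whose promoter holds a heat shock element, had 95 and 80.1 CPM in RA_0. It had 108 and 141 in AP_1h, 129.6 and 124 in PLA_1h, 57.6 and 96.5 in AP_34d and 57.7 and 61.8 in PLA_34d. All 4 libraries taken at 1 h lay above the other 6, a pattern noticed after the values were seen. The F test over the 5 groups gave an unadjusted p of 0.0295 (limma adjusted p 0.937). Against RA_0 the log2 change was 0.53 ± 0.32 (SE) in PLA_1h (unadjusted p 0.126) and 0.50 in AP_1h (0.151), and in PLA_34d it was -0.54 ± 0.32 (0.122). The counts of Hspa4, another HSP110, were 172 and 169 CPM in RA_0, 156 and 283 in AP_1h and 285 and 176 in PLA_1h, so that 1 library of each 1 h group was high and the other was near RA_0.

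Hspa8 had 479 and 362 CPM in RA_0 at its row on chromosome 11 (5434457 to 5436556). It had 397 and 499 in AP_1h, 491 and 674 in PLA_1h, 468 and 649.8 in AP_34d and 328 and 347 in PLA_34d. The AP_34d libraries lay above those of PLA_34d, with a log2 change of 0.71 (95% interval -0.09 to 1.51, limma adjusted p 0.865). The row on chromosome 8, where RefSeq's assembly places Hspa8, gave 0.70 for the same comparison. The row on chromosome 11 spans 2100 bases against 3726 on chromosome 8, and as near-identical copies can exchange reads, the level of either row is uncertain. Hspa2, an HSP70 best known from testis that is also present in muscle, ranged from 4.98 CPM in PLA_34d replicate 2 to 25 in AP_34d replicate 1, and both extremes have a partner far from them, 18.2 in PLA_34d replicate 1 and 13.9 in AP_34d replicate 2. Hspa12b, a distant HSP70 of endothelium, had 23.1 and 27.6 CPM in RA_0 and 20.1 and 18.1 in PLA_1h, a log2 change of -0.39 ± 0.30 (adjusted p 0.9997).

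Hsp90aa1, the inducible HSP90 of the cytosol, had its low values in RA_0, at 38.6 and 46.3 CPM. It had 73.8 and 113 in AP_1h, 107 and 57.9 in PLA_1h, 60.4 and 157 in AP_34d and 70.4 and 43.1 in PLA_34d. Only PLA_34d overlapped RA_0. The log2 change against RA_0 was 1.09 ± 0.49 in AP_1h (95% interval 0.01 to 2.18, limma adjusted p 0.559), 0.88 ± 0.49 in PLA_1h (adjusted p 0.9997), 1.18 in AP_34d (0.10 to 2.27, adjusted p 0.967) and 0.37 in PLA_34d (adjusted p 0.914). Acupuncture and placebo at 1 h did not differ beyond their spread, with a difference of 0.21 (95% interval -0.88 to 1.29).

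Hsp90ab1, the constitutive HSP90, had 1926 and 1566 CPM in RA_0, 1753 and 1386 in AP_1h, 2155 and 2364 in PLA_1h, 1739 and 2598 in AP_34d and 1337 and 1451 in PLA_34d. Its range over the libraries was 1.94-fold, less than the 4.06-fold of Hsp90aa1. At 34 days the placebo libraries were the lower pair, with a log2 change of AP_34d against PLA_34d of 0.61 (95% interval -0.39 to 1.61, adjusted p 0.897).

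**Figure D2:**
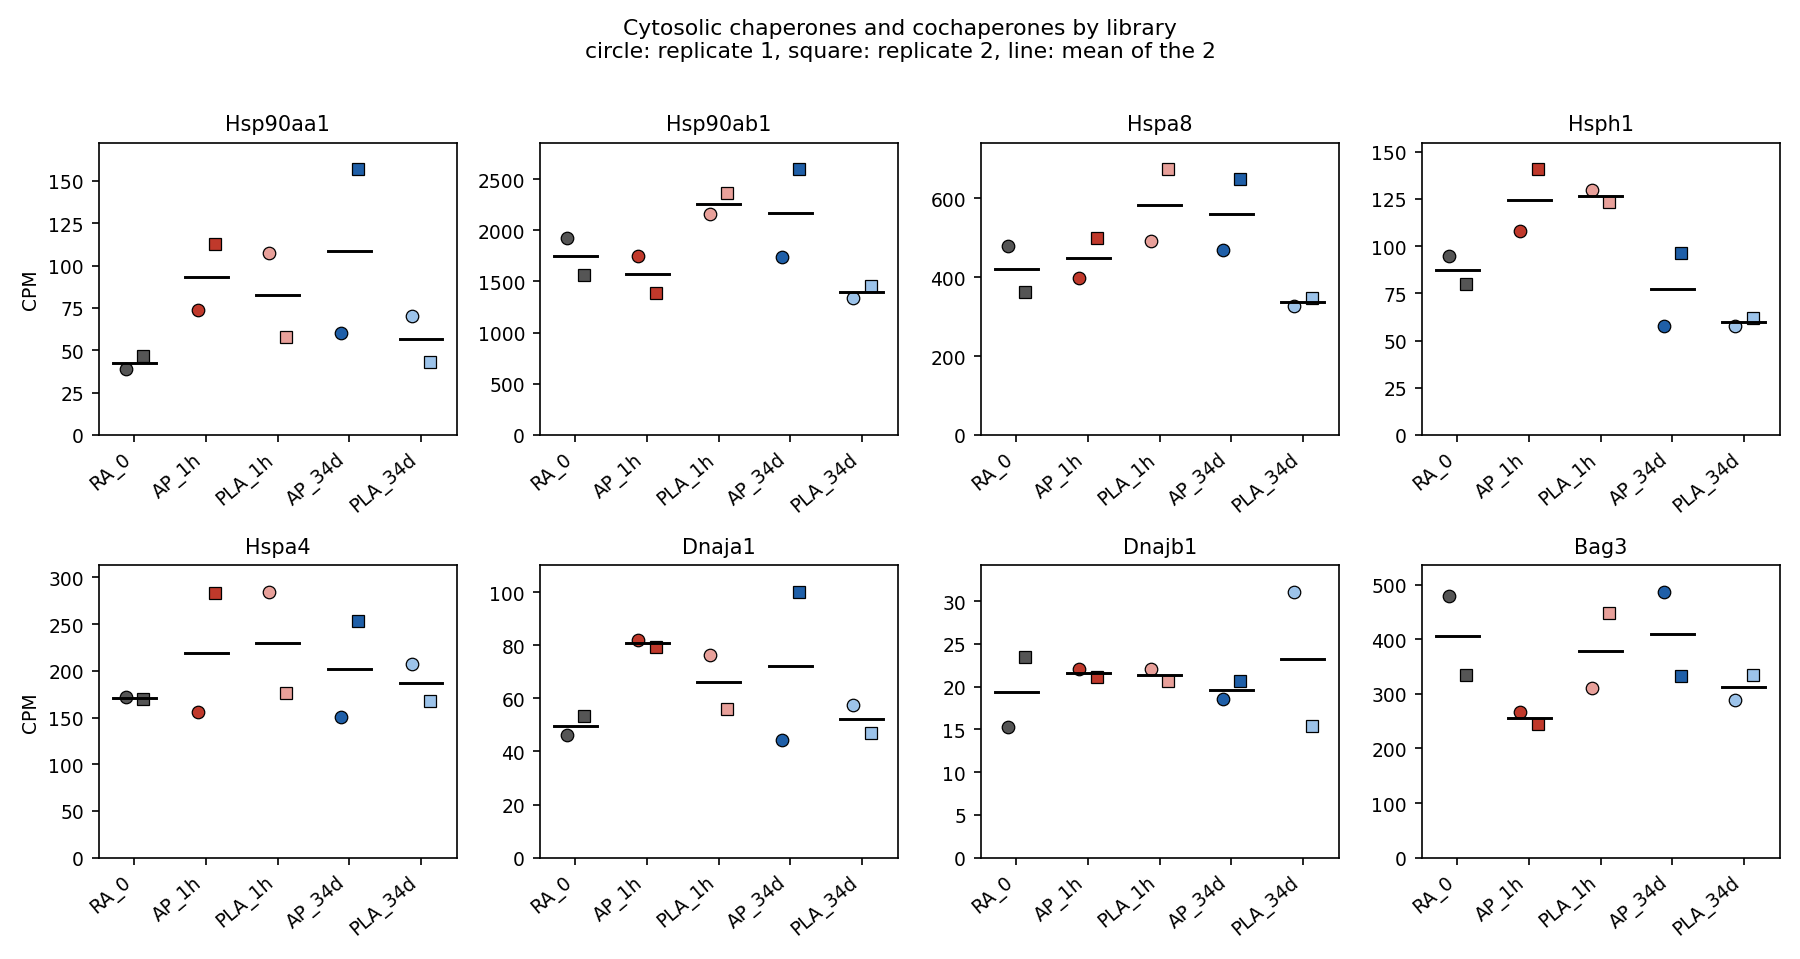
Values of 8 cytosolic members in CPM (vertical axes from 0) in the 5 groups, with a circle for replicate 1, a square for replicate 2 and a line for their mean. Hsph1 is above the other groups in all 4 libraries of 1 h, the 2 RA_0 libraries of Hsp90aa1 are at 38.6 and 46.3 CPM, and for several members the 2 animals of AP_34d lie far apart.

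The J proteins of the cytosol gave no common direction. Dnaja1, whose promoter window holds a heat shock element, had 46.3 and 53.2 CPM in RA_0, 82.1 and 79.5 in AP_1h, 76.4 and 56 in PLA_1h, 44.1 and 100.1 in AP_34d and 57.5 and 46.9 in PLA_34d, so that both 1 h groups lay above RA_0 (log2 change 0.69 in AP_1h, 95% interval -0.16 to 1.54, and 0.39 in PLA_1h, -0.46 to 1.24). Dnajb1, the partner of inducible HSP70, stayed between 15.3 and 31.1 CPM, with no change over 0.20 in size against RA_0. Dnajb5, a J protein expressed in muscle, had 261 to 451 CPM, with changes against RA_0 from 0.03 to 0.22. Dnajb4 had 47.2 and 66.9 CPM in AP_1h at its main row against 87.6 and 69.8 in PLA_1h, a log2 change of -0.47 (95% interval -1.18 to 0.24).

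Dnaja4, a J protein related to Dnaja1, had values in the opposite direction. It had 250.0 and 138 CPM in RA_0, 62.4 and 97.4 in AP_1h, 114 and 178 in PLA_1h, 109 and 120.0 in AP_34d and 153 and 116 in PLA_34d. The AP_1h libraries lay below those of RA_0 (log2 change -1.24 ± 0.39, adjusted p 0.364) and of PLA_1h (-0.87 ± 0.39, adjusted p 0.9999), and AP_34d lay below RA_0 (-0.69 ± 0.39, adjusted p 0.967). RA_0 replicate 1 was the highest library, and the sum of the slow fibre markers was also highest there and lowest in AP_1h; its part in the difference was not tested.

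The widest ranges of all members were those of small heat shock proteins. Hspb6 (Hsp20, chromosome 1, 85599075 to 85601214) and Hspb7 (chromosome 5, 160311908 to 160315394), both bound to the contractile apparatus of heart and muscle, spanned 7.76-fold and 13.8-fold over the 10 libraries. Hspb6 had 5749 and 2850.4 CPM in RA_0, 848 and 1503 in AP_1h, 1596 and 3499 in PLA_1h, 5113 and 741 in AP_34d and 2518 and 2870.5 in PLA_34d. Hspb7 had 1502 and 326 CPM in RA_0, 143 and 478 in AP_1h, 552 and 848 in PLA_1h, 1976 and 495 in AP_34d and 925 and 499.9 in PLA_34d. The 2 animals of a group differed up to 6.90-fold for Hspb6 and up to 4.61-fold for Hspb7. The AP_1h libraries of Hspb6 lay below RA_0, with a log2 change of -1.84 (95% interval -3.74 to 0.06, limma adjusted p 0.577), and those of Hspb7 overlapped RA_0 (-1.42, -3.34 to 0.50, adjusted p 0.691).

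The slow fibre markers were uneven across the same libraries. Their summed level was 19965 and 10073 CPM in RA_0, 975 and 1123 in AP_1h, 4178 and 1842 in PLA_1h, 11139 and 1894 in AP_34d and 19902 and 1704 in PLA_34d. In AP_1h against RA_0 all 7 tested slow fibre transcripts had an unadjusted p under 0.05, with a median log2 change of -3.55, against -0.92 for the 6 small heat shock proteins of muscle. In RA_0, AP_1h and AP_34d the library with more slow fibre signal also had more Hspb6 and Hspb7. In PLA_1h the order was the opposite for both, and in PLA_34d replicate 1, with 19902 CPM of slow fibre signal, Hspb7 was higher and Hspb6 lower than in replicate 2. The summed fast fibre markers were 315940 and 173900 CPM in RA_0, 150890 and 257870 in AP_1h and 123760 and 315370 in PLA_1h. They were 261930 and 187580 in AP_34d and 100200 and 252390 in PLA_34d. In each group the library with more fast fibre signal also had more Hspb6, and outside PLA_34d more Hspb7. Of the slow fibre transcripts, 2 of Atp2a2 were at 0 in every library. The part of fibre type in the range of Hspb6 and Hspb7 was not tested.

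**Figure D3:**
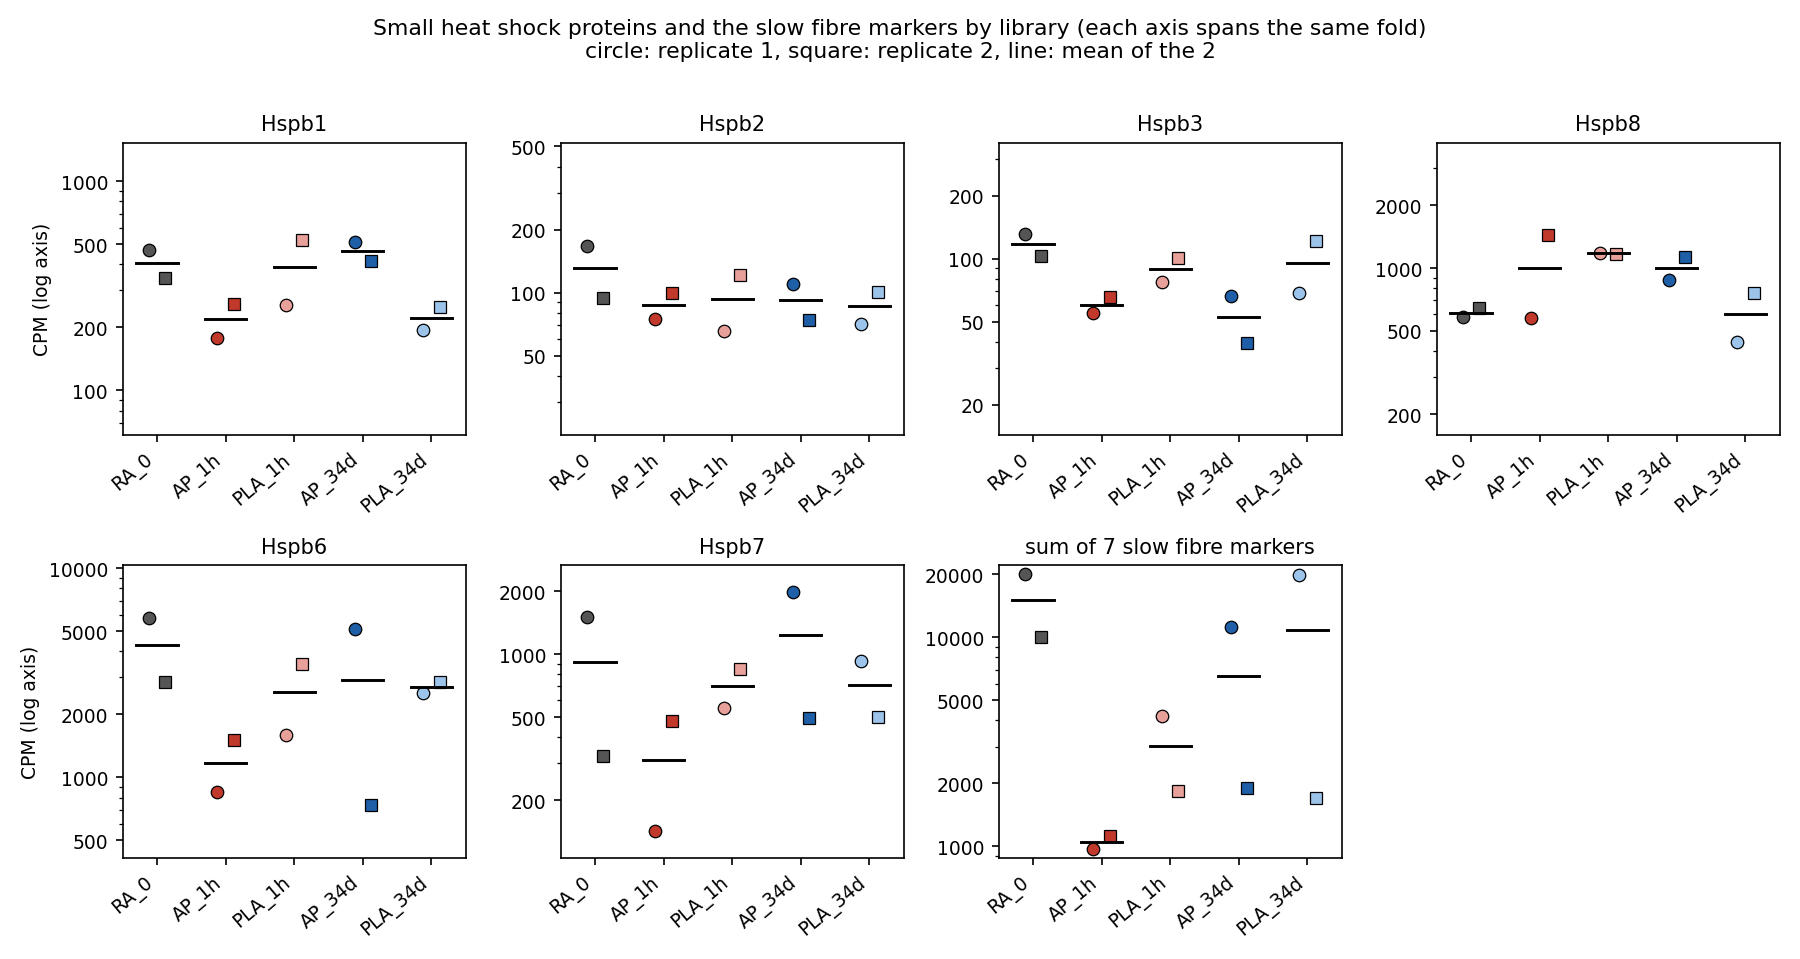
Values in CPM (log axes, each spanning the same fold) of 6 small heat shock proteins and of the summed slow fibre markers in the 5 groups, with a circle for replicate 1, a square for replicate 2 and a line for their mean. Hspb6 and the slow fibre sum are low in both AP_1h libraries, and Hspb6, Hspb7 and the slow fibre sum lie far apart between the 2 animals of AP_34d.

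Hspb1 (Hsp27), a protector of actin filaments, had 467 and 342 CPM in RA_0, 178 and 259 in AP_1h, 255 and 524 in PLA_1h, 512 and 415 in AP_34d and 195 and 249.6 in PLA_34d. It was lower than RA_0 in AP_1h (log2 change -0.89 ± 0.41, adjusted p 0.575) and in PLA_34d (-0.86 ± 0.41, adjusted p 0.914), and AP_34d lay above PLA_34d (1.06, 95% interval 0.14 to 1.98, adjusted p 0.856). The estimated difference between acupuncture and placebo was thus negative at 1 h and positive at 34 days. At 1 h, however, the libraries of the 2 groups overlapped and the unadjusted p was not under 0.05. The interaction term was 1.82 ± 0.58, with an unadjusted p of 0.0107 and an adjusted p of 0.9998.

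Hspb3, which forms a complex with Hspb2 in differentiated muscle, was low after acupuncture at both times. It had 131 and 103 CPM in RA_0, 55 and 65.5 in AP_1h, 77.1 and 101 in PLA_1h, 66.4 and 39.3 in AP_34d and 68.2 and 122 in PLA_34d. All 4 acupuncture libraries lay below the 4 placebo libraries and the 2 of RA_0, though AP_34d replicate 1 (66.4) was close to PLA_34d replicate 1 (68.2). Such a split was not part of the naming rule, and its share over all transcripts was not counted. The log2 change against RA_0 was -0.94 ± 0.38 in AP_1h (adjusted p 0.512) and -1.17 ± 0.38 in AP_34d (adjusted p 0.967), with -0.39 ± 0.38 in PLA_1h. Acupuncture against placebo was -0.82 ± 0.38 at 34 days (adjusted p 0.856) and -0.69 ± 0.27 over both times (unadjusted p 0.0271, adjusted p 0.791). Hspb3 overlaps a transcript of another symbol, RGD1561161. Its partner Hspb2 had 74.6 and 99.2 CPM in AP_1h, 65.4 and 122 in PLA_1h, 110.3 and 73.6 in AP_34d and 71 and 101 in PLA_34d, so that acupuncture and placebo overlapped.

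Hspb8, the partner of Bag3 in the clearance of damaged filamin, had 584 and 641 CPM in RA_0, 578 and 1431 in AP_1h, 1181 and 1167 in PLA_1h, 874 and 1128 in AP_34d and 443 and 758 in PLA_34d. PLA_1h lay above RA_0 (log2 change 0.94 ± 0.49, adjusted p 0.9997), as did AP_34d (0.70, 95% interval -0.39 to 1.79, adjusted p 0.967). Bag3 itself had 479 and 335 CPM in RA_0, 268 and 246 in AP_1h, 311 and 448 in PLA_1h, 487 and 333 in AP_34d and 288 and 335 in PLA_34d. Bag3 was thus lowest in AP_1h, with a log2 change against RA_0 of -0.64 (95% interval -1.44 to 0.16, adjusted p 0.663), in the group where Hspb8 was high in 1 library and near RA_0 in the other.

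Among the other Bag proteins, Bag2, an inhibitor of the ubiquitin ligase Stub1, had 69.5 and 79 CPM in AP_34d and 28.2 and 40.9 in PLA_34d, a log2 change of 1.10 ± 0.36 (adjusted p 0.846), with 66.8 and 37.1 in RA_0, 59.6 and 50.1 in AP_1h and 39.8 and 55.6 in PLA_1h. The AP_34d libraries were the 2 highest of all 10. Bag4, a silencer of death domains, had 1.67 and 2.08 CPM in RA_0 and 5.50 and 2.42 in PLA_34d (0.72 ± 0.43, adjusted p 0.914), and its row overlaps Lsm1. Bag5 stayed between 34.5 and 53.3 CPM.

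The listed mitochondrial members had log2 changes against RA_0 from -0.84, in PLA_34d, to 0.20, in PLA_1h. Hspa9, the HSP70 of the import motor, had 263 and 220.1 CPM in RA_0, 132 and 190.3 in AP_1h, 267 and 267 in PLA_1h, 249 and 239 in AP_34d and 219.9 and 317 in PLA_34d. The 2 AP_1h libraries were the lowest of the 10, with a log2 change against PLA_1h of -0.75 ± 0.33 (adjusted p 0.9999). Hspd1, the HSP60 of the matrix, had 185 and 188 CPM in RA_0, 131 and 218 in AP_1h, 236 and 194 in PLA_1h, 126 and 156 in AP_34d and 149 and 224 in PLA_34d. Its cochaperonin Hspe1, which shares the promoter region with the heat shock elements, had 172 and 71.1 CPM in RA_0, 116 and 112 in AP_1h, 75.3 and 127 in PLA_1h, 122 and 59.8 in AP_34d and 46.3 and 96.1 in PLA_34d. The ratio of Hspd1 to Hspe1 ran from 1.03 to 3.21 over the libraries, in spite of the shared region. Its highest values, 3.21 and 3.14, were in PLA_34d replicate 1 and PLA_1h replicate 1, the other member of each of these groups being at 2.33 and 1.53. Of the 8 tested mitochondrial transcripts, 6 lay below 0 in AP_1h against RA_0 (median -0.12, all transcripts 0.00). In PLA_1h 4 lay above and 4 below (median 0.01, all transcripts -0.01). At 34 days 7 lay below 0 in each group, with medians of -0.24 for AP_34d and -0.19 for PLA_34d (all transcripts -0.01 in both). These comparisons share the same RA_0 libraries, and none of the transcripts passed the test. With the 2 transcripts of Dnaja3 summed, 5 of 7 symbols lay below 0 in AP_1h, 3 of 7 in PLA_1h and 6 of 7 in each 34-day group.

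On the deposited scale the members listed for the endoplasmic reticulum were, as a sum, lowest in RA_0, though narrowly so against PLA_1h. The factors of that scale ran from 0.78 in RA_0 replicate 1 to 1.31 in PLA_34d replicate 1. Whether the order of the sums holds under another scaling was not tested. The list leaves out Dnajb12 of the reticulum membrane, and Hspa5 weighs most in the sum. The summed level of the 7 tested members listed was 550.1 and 597 CPM in RA_0, 743 and 773 in AP_1h, 649 and 601 in PLA_1h, 691 and 780.4 in AP_34d and 614 and 629 in PLA_34d. In AP_1h against RA_0 all 7 lay above 0, with a median log2 change of 0.42 beside 0.00 for all transcripts, and in AP_34d 6 of 7 did, with a median of 0.43 (all transcripts -0.01). In PLA_1h 6 of 7 did, with a median of 0.18, and in PLA_34d 4 of 7 did, with a median of 0.01 (all transcripts -0.01). These 4 comparisons rest on the same RA_0 libraries, and no member passed the test. Markers of other cells differed in them too: all 6 tested leukocyte transcripts lay above 0 in AP_1h, AP_34d and PLA_34d (medians 1.11, 0.67 and 1.16) and 4 of 6 in PLA_1h (0.48), and all 7 slow fibre transcripts lay below 0 in each (-3.55, -1.68, -1.54 and, in PLA_1h, -2.35). Their part in the values of the reticulum members was not tested.

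Dnajc3 (chromosome 15, 103881634 to 103921295), a J protein of the reticulum that also restrains the kinase that halts translation under stress, gave the smallest unadjusted p of any member. It had 28.2 and 19 CPM in RA_0, 34.9 and 34.4 in AP_1h, 28.9 and 35.6 in PLA_1h, 39.8 and 58.6 in AP_34d and 20.2 and 21.2 in PLA_34d. The AP_34d libraries were the 2 highest of all 10 and those of PLA_34d were near RA_0. The log2 change of AP_34d was 1.19 ± 0.32 against PLA_34d (95% interval 0.48 to 1.89, unadjusted p 0.00362, limma adjusted p 0.846) and 1.03 ± 0.32 against RA_0 (adjusted p 0.931). At 1 h acupuncture and placebo differed by 0.11 (95% interval -0.59 to 0.81). The interaction of treatment and time was 1.08 ± 0.45 (unadjusted p 0.0358, adjusted p 0.9998).

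Dnajb9, which binds Hspa5 and represses the stress sensor Ire1, had 40.6 and 47.8 CPM in RA_0, 60.6 and 99.2 in AP_1h, 74.8 and 56 in PLA_1h, 69.3 and 120.2 in AP_34d and 58.1 and 69.2 in PLA_34d. Both RA_0 libraries lay below the other 8, those of placebo included. The log2 change against RA_0 was 1.04 ± 0.36 in AP_34d (adjusted p 0.967) and 0.80 ± 0.36 in AP_1h (adjusted p 0.564), and it was 0.55 in PLA_1h and 0.52 in PLA_34d. Hspa13, a truncated HSP70 of the microsomes, was also low in RA_0, at 3.10 and 5.79 CPM, with 14.2 and 11.5 in PLA_34d (log2 change 1.39 ± 0.64, adjusted p 0.914), 3.89 and 11.6 in AP_1h, 15.6 and 6.32 in PLA_1h and 5.86 and 20.5 in AP_34d.

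Hspa5 (BiP), the main HSP70 of the reticulum and the usual readout of its stress, had 266 and 272 CPM in RA_0, 371 and 348 in AP_1h, 260.1 and 264 in PLA_1h, 315 and 288 in AP_34d and 241 and 304 in PLA_34d. The 2 AP_1h libraries were the highest of the 10, with a log2 change of 0.45 ± 0.30 against PLA_1h (adjusted p 0.9999) and 0.42 against RA_0 (95% interval -0.24 to 1.07). PLA_1h differed from RA_0 by -0.04 ± 0.30. Hsp90b1 (Grp94), the HSP90 of the reticulum, had 102 and 141 CPM in RA_0, 159 and 132 in AP_1h, 147 and 126 in PLA_1h, 157 and 166 in AP_34d and 172 and 121 in PLA_34d, with a change of 0.43 in AP_34d against RA_0 (95% interval -0.27 to 1.12). Hspa5, Hsp90b1 and Dnajc3 carry the stress element in their promoter windows, and among them Dnajc3 alone had an unadjusted p under 0.05 in a comparison of 2 groups. Dnajb11, which delivers clients to Hspa5, stayed between 37.4 and 52.8 CPM, and Dnajc10, a reductase of disulfide bonds, between 60.4 and 94.7 CPM.

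**Figure D4:**
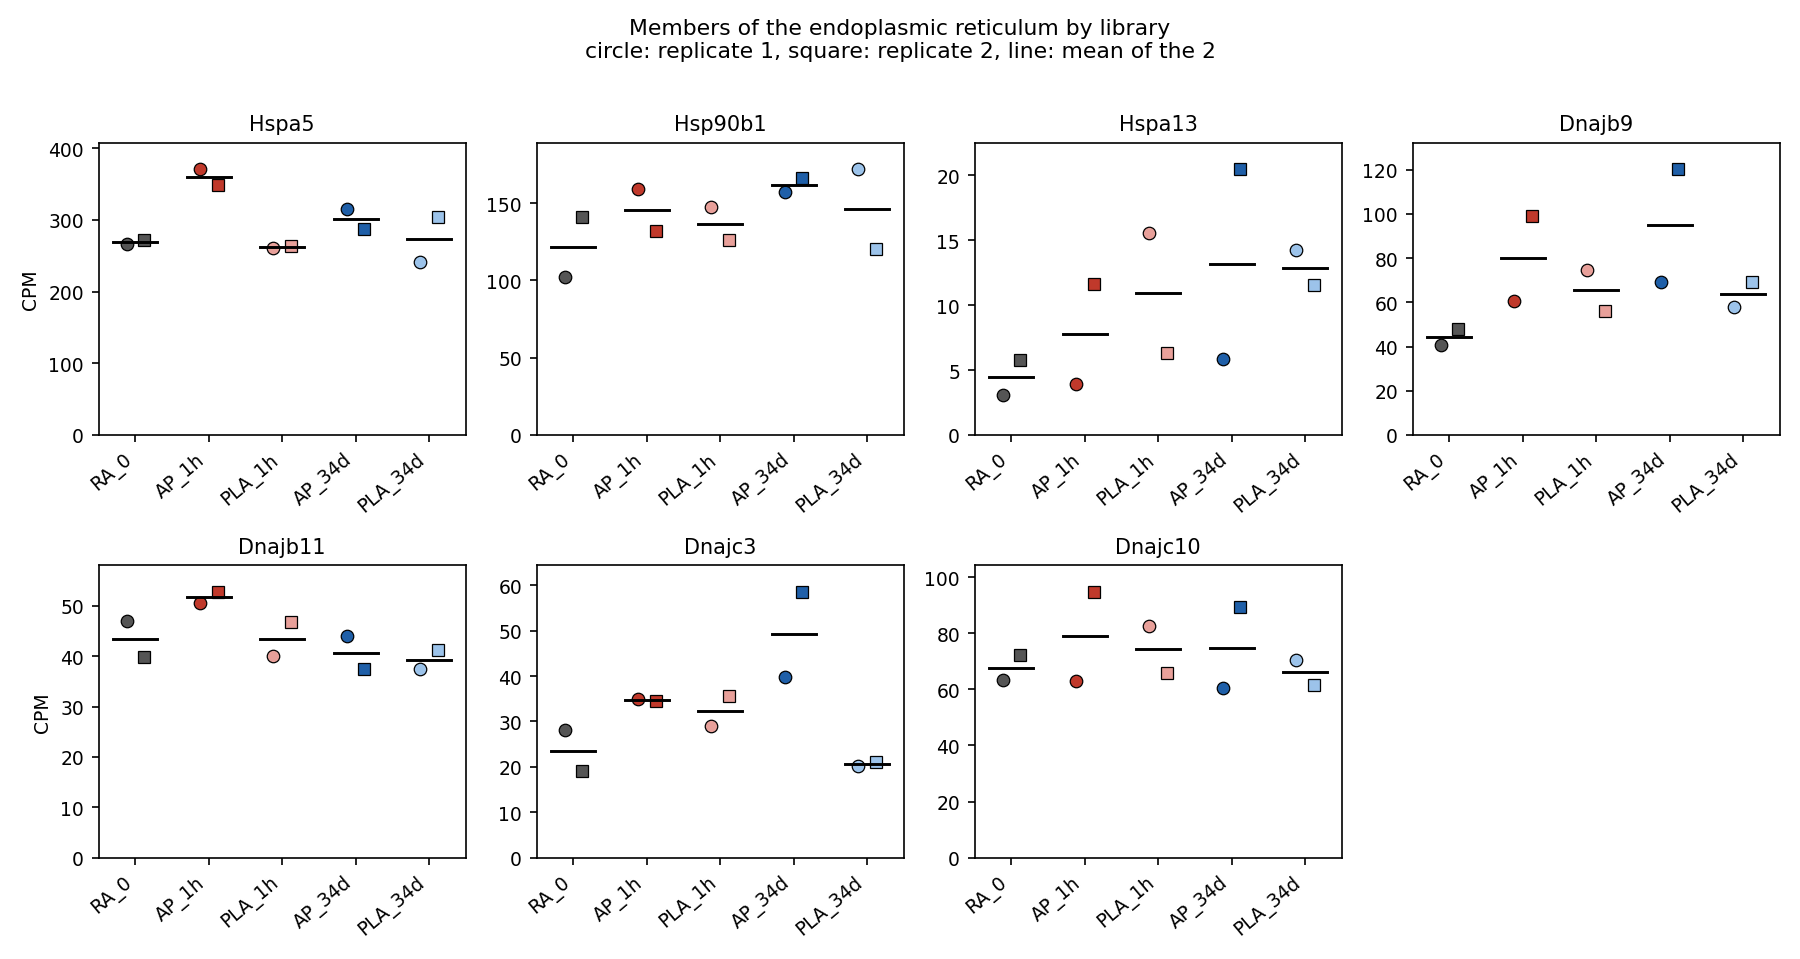
Values in CPM (vertical axes from 0) of the 7 tested members listed for the endoplasmic reticulum in the 5 groups, with a circle for replicate 1, a square for replicate 2 and a line for their mean. Dnajc3 is highest in the 2 libraries of AP_34d (39.8 and 58.6 CPM) and near 20 CPM in PLA_34d, and Dnajb9 is lowest in the 2 libraries of RA_0.

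Further J proteins had unadjusted p-values under 0.05 in at least 1 comparison. Dnajb12, a J protein of the reticulum membrane that serves protein degradation, had 67.6 and 81.3 CPM in AP_34d and 34.8 and 40.4 in PLA_34d at its row on chromosome 20, a log2 change of 0.97 ± 0.31 (adjusted p 0.846), with 54.4 and 45.6 in RA_0, 58.2 and 44.5 in AP_1h and 43.4 and 64.2 in PLA_1h. In PLA_34d against RA_0 this row gave -0.40 ± 0.31 (adjusted p 0.914), its second row gave 0.89 ± 0.33 in AP_34d against RA_0 (adjusted p 0.967), and the interaction for the row on chromosome 20 was 1.02 ± 0.43 (adjusted p 0.9998). Its relative Dnajb14 had 2.39 and 3.56 CPM in RA_0, 2.15 and 4.93 in AP_34d and 6.06 and 5.12 in PLA_34d, which gave 0.74 ± 0.40 in PLA_34d against RA_0 (adjusted p 0.914) and -0.60 ± 0.40 in AP_34d against PLA_34d (adjusted p 0.889). The 34-day groups did not overlap in either relative, in opposite directions, and neither difference passed the test.

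Dnajc2, a J protein bound to ribosomes, had 51.2 and 88.9 CPM in AP_34d, 44.8 and 28 in PLA_34d and 43.4 and 26.7 in RA_0 (log2 change 0.91 ± 0.39 against PLA_34d, adjusted p 0.856, and 0.96 ± 0.39 against RA_0, adjusted p 0.967). Dnajc21, which acts in ribosome assembly, had 74.4 and 87.9 CPM in AP_1h, 55.6 and 64.2 in PLA_1h, 70.7 and 108 in AP_34d and 41.4 and 58.3 in PLA_34d, with all 4 acupuncture libraries above the placebo libraries and a change over both times of 0.62 ± 0.27 (unadjusted p 0.0463, adjusted p 0.854). In RA_0 it had 79.9 and 38.3 CPM, 1 library within the acupuncture values and the other below every placebo library. As for Hspb3, the share of all transcripts with such a split was not counted. Dnajc22 gave 0.63 ± 0.26 over both times (adjusted p 0.823) and 0.62 ± 0.36 at 1 h (adjusted p 0.9999), with 6.38 and 7.42 CPM in AP_1h and 3.17 and 5.26 in PLA_1h.

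Dnajc25 had 13.8 and 13.3 CPM in AP_1h against 8.11 and 5.64 in RA_0 and 6.74 and 10.2 in PLA_1h, with log2 changes of 0.90 ± 0.38 (adjusted p 0.531) and 0.65 ± 0.38 (adjusted p 0.9999). Dnajc28 had 8.65 and 13 CPM in AP_1h against 23.2 and 17.7 in PLA_1h, a change of -0.87 ± 0.37 (adjusted p 0.9999). Dnajc17, at 2.86 and 3.71 CPM in RA_0, 2.15 and 1.94 in AP_34d and 2.92 and 3.13 in PLA_34d, gave -0.49 ± 0.38 against RA_0 (adjusted p 0.967) and -0.40 ± 0.38 against PLA_34d (adjusted p 0.926), and these levels stand on few reads.

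Over the 10 libraries the highest value of a member was 1.23 (Dnajc14) to 13.8 times (Hspb7) its lowest, with a median of 2.41. The range was under 2-fold for 24 of the 69 and at least 4-fold for 8, namely Hspb7, Hspb6, Hspa4l, Hspa13, Hspa2, Dnajc15, Hsp90aa1 and Dnaja4. Of these, Hspa4l had at most 3.08 CPM, so that few reads stand behind its range. Dnajc15, a J protein of the mitochondrial inner membrane, ran from 21.2 CPM in PLA_34d replicate 1 to 103 in RA_0 replicate 1. AP_34d replicate 2 was the highest library for 18 members, Hsp90aa1, Hsp90ab1, Dnajc3, Dnajb9 and Hspa13 among them, and RA_0 replicate 1 for 12. Neither these counts nor those of the ranges were taken over all transcripts, so they cannot be read as particular to the members.

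**Figure D5:**
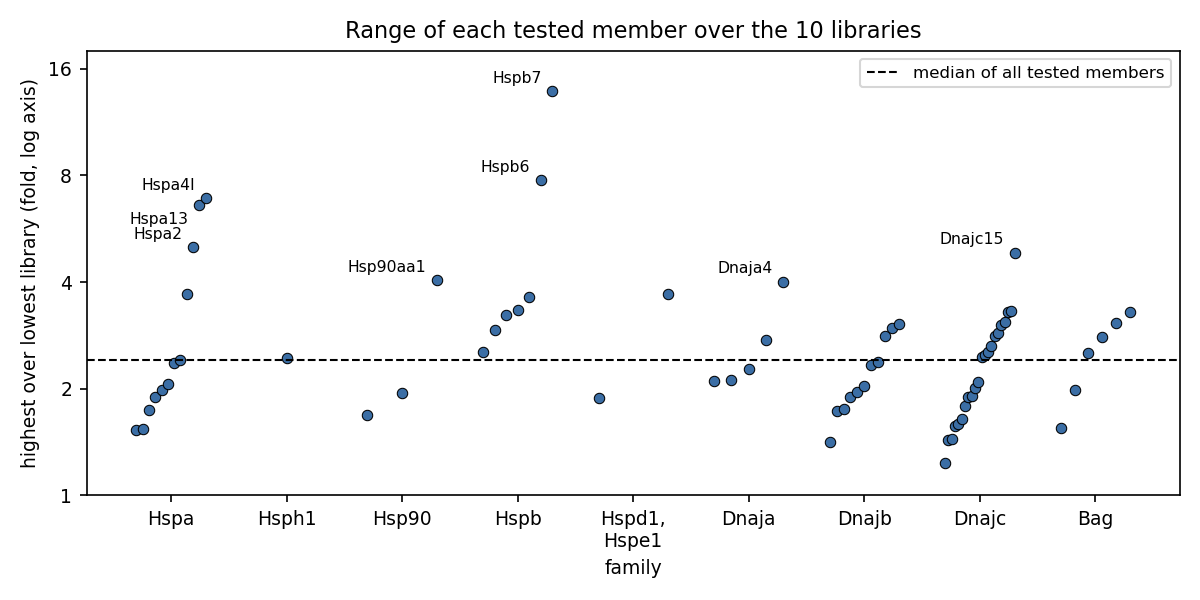
The ratio of the highest to the lowest library (log axis) for each of the 69 tested members, ordered within its family, with the dashed line at the median of 2.41-fold. Named points are the 8 members with a ratio of at least 4, led by Hspb7 at 13.8 and Hspb6 at 7.76.

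Among the partners of the members was a change larger than that of any member. Of 18 tested transcripts of HSP90 and HSP70 partners, Fkbp5, an HSP90 cochaperone of steroid receptors and itself a known glucocorticoid target, was named after its values were seen. It had 21.5 and 21.7 CPM in RA_0, 239 and 149 in AP_1h, 108 and 154 in PLA_1h, 229 and 68.3 in AP_34d and 36.9 and 40.9 in PLA_34d, a log2 change of 3.07 ± 0.50 in AP_1h against RA_0 (limma adjusted p 0.0934) and 2.53 ± 0.50 in PLA_1h against RA_0 (adjusted p 0.950). In AP_34d it was 2.48 against RA_0 (adjusted p 0.419) and 1.66 against PLA_34d (adjusted p 0.846). No partner passed the test. The other partner transcripts with an unadjusted p under 0.05 were Sqstm1 and Ptges3 in AP_34d against PLA_34d, both higher (1.43 and 0.84 on the log2 scale, adjusted p 0.846 for each).

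Cryab, a small heat shock protein outside the name rule, had 6556 and 2837 CPM in RA_0, 1592 and 1477 in AP_1h, 1939.7 and 4302 in PLA_1h, 4931 and 1452 in AP_34d and 2582 and 2220.2 in PLA_34d, with the high values in RA_0 replicate 1 and AP_34d replicate 1, where Hspb6 and Hspb7 were high too. The 8 subunits of the chaperonin CCT, which folds actin and tubulin, all lay above 0 in PLA_1h against RA_0 (median 0.22, all transcripts -0.01) and in AP_34d against PLA_34d (median 0.52, all transcripts 0.00), and 7 of 8 lay below 0 in PLA_34d against RA_0 (median -0.30) and above 0 in AP_1h against RA_0 (0.25). At an unadjusted p under 0.05 were Cct4 in AP_34d against PLA_34d (0.80, 1 of 8 beside 5.47% of all transcripts) and Cct6a in AP_1h against RA_0 (0.89, 1 of 8 beside 8.89%), and none was called. Hsf1 ranged from 41.7 to 99.7 CPM and Hsf2 from 46.8 to 126, and none of the 4 heat shock factor transcripts had an unadjusted p under 0.05 in a comparison of 2 groups.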

How the data were processed

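RNA of muscle beneath the skin from 10 rats, 5 groups of 2, was sequenced by the authors (Trizol, TruSeq, HiSeq). Per the labels, reads passed CASAVA 1.8.2 and cutadapt 1.2.1, were aligned to rn4 with Bowtie2 2.1.0, counted per transcript with HTSeq 0.5.4p3 in a mode that drops ambiguous reads, and scaled with edgeR 3.4.2. The deposited signal is CPM with TMM factors for composition. All values were whole multiples of 1 read (tolerance 0.01 reads), so read counts were recovered for the alternatives.

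Here log2(CPM + 1) was fitted with limma (1 mean per group, eBayes with trend, 5.14 prior degrees of freedom). Transcripts needed 1 CPM in both libraries of a group, which kept 10259 (59.6%). A fold change on this scale understates low transcripts. A call was an adjusted p under 0.05. Python 3.11.15, DESeq2 1.42.0, edgeR 4.0.16 and limma 3.58.1 under R 4.3.3 were used. The members, the lists and the comparisons were chosen with earlier results of these data known. Named were 25 members for their role and, for each pair of groups, among members whose libraries did not overlap, the 3 or fewer of smallest unadjusted p in either direction. Further members with an unadjusted p under 0.05, or with a wide range, and the partner Fkbp5 were named after their values were seen. The procedure was tested on simulated data. The sample titles tie no replicate number to a shared animal or day, and the main fit did not pair libraries by number. Coordinates of transcripts are those of rn4, and promoters those of GRCr8. Transcript lengths were not used here, so levels are not compared between genes.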

Additional observations from a re-analysis of the deposited data

How the results depend on the processing

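No member was called under any of the 25 alternatives, and all 223 counts of calls stayed at 0. These were a pseudocount of 4 or 0.25, a filter on a mean of 5 CPM or none, library-size, DESeq2 and quantile scaling, the 20 most abundant transcripts left out, limma-voom, edgeR, DESeq2, the compared groups alone, no mean trend, the replicate block, rows summed per symbol, and each of the 10 libraries left out. Counts at an unadjusted p under 0.05 were less stable, and the share of all transcripts was not taken beside them under the alternatives. Of 199 such counts, 144 stayed within 1.5 times the value given, 34 were higher and 21 lower. By limma-voom, edgeR and DESeq2 they were 3, 6 and 8 in AP_1h against RA_0, 6, 6 and 7 in AP_34d against RA_0, 6, 6 and 9 in AP_34d against PLA_34d, 3, 1 and 3 in AP_1h against PLA_1h, 0, 0 and 2 in PLA_34d against RA_0, 0 by each in PLA_1h against RA_0, 4, 5 and 6 over both times, and 3, 3 and 6 in the interaction.

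Scaling moved the medians. With library-size CPM the median over all transcripts shifted to 0.15 in AP_1h against RA_0, 0.23 in PLA_34d against RA_0, -0.19 in AP_34d against PLA_34d and -0.26 in the interaction, and the medians of the members became 0.21, 0.16, -0.0582 and -0.0944. Without the 20 most abundant transcripts the median of all was 0.16 in PLA_34d against RA_0, -0.16 in AP_34d against PLA_34d and -0.20 in the interaction, and that of the members became 0.10, -0.0107 and -0.0217. With a library left out, the median of the members ran from -0.0694 to 0.16 in AP_1h against RA_0, from -0.21 to -0.00833 in PLA_34d against RA_0 and from 0.0741 to 0.38 in the interaction. Of the 36 named changes, 35 kept their direction throughout. Hspa5 in PLA_1h against RA_0 became 0.0232 with library-size CPM, 0.0294 with quantile scaling and 0.0122 without the 20 most abundant.

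Replicate numbers were checked for pairing. Deviations of same-numbered libraries correlated from -0.46 to 0.45 between groups, which does not settle whether some groups shared a day or handling. With the replicate block 0 members were called in each comparison, and at an unadjusted p under 0.05 there were 4 in AP_1h against RA_0, 6 in AP_34d against RA_0, 1 in AP_1h against PLA_1h, 5 in AP_34d against PLA_34d, 4 over both times and 1 in the interaction. The share of all transcripts was not taken beside these counts either. With 4.19 to 10.1 reads per CPM, members near 1 CPM rest on few reads.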
